A study of Homo sapiens with 6 samples.

Results

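ZBED2, the interferon regulatory factor genes IRF1, IRF2, IRF3, IRF7 and IRF9, and IRF2BP2, which encodes a partner of IRF2 and no factor of that family, were followed through 6 RNA sequencing libraries of PC3 cells, a line derived from a human prostate cancer metastasis. These 7 genes were taken by name from the 27958 genes of the deposited table. ZBED2 was picked for its higher values in the NRP2-high cells, so its difference between the groups is given as a description and was not tested. The other 6, called the IRF genes below, were named with earlier results of these data known.

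NRP2-high stands for PC3 cells sorted for high NRP2 (3 libraries, called S38, S39 and S40 as in the table), and NRP2-low for PC3 cells sorted for low NRP2 (3 libraries, S35, S36 and S37). NRP2, neuropilin 2, is a surface protein that binds semaphorins and some VEGF ligands. Neither group carried a transgene, a deletion or an added agent according to the labels, and both were the same line, stained and sorted by flow cytometry and then cultured for up to 2 weeks. RNA was taken at different passages, the labels do not say which library came from which passage, and separate sorts or cultures within a group are not stated. The p-values therefore reflect the spread among these samples alone, part of which may be technical.

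Interferon regulatory factors are transcription factors that share a DNA-binding domain and read GAAA-rich elements in promoters of antiviral and antigen presentation genes. Some of them activate, such as IRF1, IRF3 and IRF7, and IRF2 mostly opposes IRF1 at the same elements. ZBED2, a zinc finger protein of the BED type, is known from pancreatic cancer cells as a repressor that opposes IRF1 at interferon response genes.

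Depth lay between 17551302 and 30726744 reads per library, recovered from TPM values (reads divided by gene length and scaled to the same total in each library). NRP2 was at 16.6 to 48.1 TPM in NRP2-high cells, against 2.71 to 7.55 TPM in NRP2-low cells. Mitochondrially encoded genes took 31.0% of the TPM of NRP2-low library S37, 18.7% of NRP2-high library S40 and 11.1% to 16.1% of the others. Over all tested genes the log2 fold change had a median of 0.10 on deposited values and -0.01 once libraries were put on their median log ratio, here called median-scaled. Of the epithelial markers, KRT18 and KRT8 were at 341.98 to 584.6 and 62.9 to 174 TPM in the 6 libraries, whereas KRT19 and EPCAM had 2 and 1 reads in NRP2-high cells, against 0 and 0 reads in NRP2-low cells. The 5 leukocyte markers in the table summed to 0.136 to 1.01 TPM in NRP2-high cells, against 0.817 to 1.82 TPM in NRP2-low cells, with PTPRC at 3 reads in each group and CD14 at up to 1.52 TPM.

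ZBED2 (ENSG00000177494.5), with 2311 exon bases, lies on the minus strand of GRCh38 chromosome 3, at 111592900 to 111595443. It is inside the span of CD96 and shares no exon base with it. The ZBED2 level was 27.9, 20.3 and 88.6 TPM in NRP2-high cells (S38, S39, S40), against 0.387, 1.26 and 1.24 TPM in NRP2-low cells (S35, S36, S37). The 3 libraries of NRP2-high lay far above all those of NRP2-low, and S40 stood above the other two of its group. In reads these were 352, 258 and 1259 in NRP2-high cells, against 7, 17 and 16 in NRP2-low cells. The 95% counting interval of the lowest library, S35, was 0.156 to 0.798 TPM, which covers counting error only.

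The ZBED2 means were 45.6 ± 37.5 TPM in NRP2-high cells, against 0.963 ± 0.499 TPM in NRP2-low cells (SD, n = 3 each), a 47.4-fold ratio. On the log2(TPM + 1) scale, which understates changes of low values, the difference was 4.31, and no tested gene had a greater log2 fold change. Without S40 it was 3.69. In bulk RNA a larger share of cells with ZBED2 and more ZBED2 RNA per cell cannot be told apart. ZBED2 was highest in the library with the lowest NRP2 of its group: S40 had 16.6 TPM of NRP2, against 48.1 in S38 and 42.5 in S39.

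**Figure D1:**
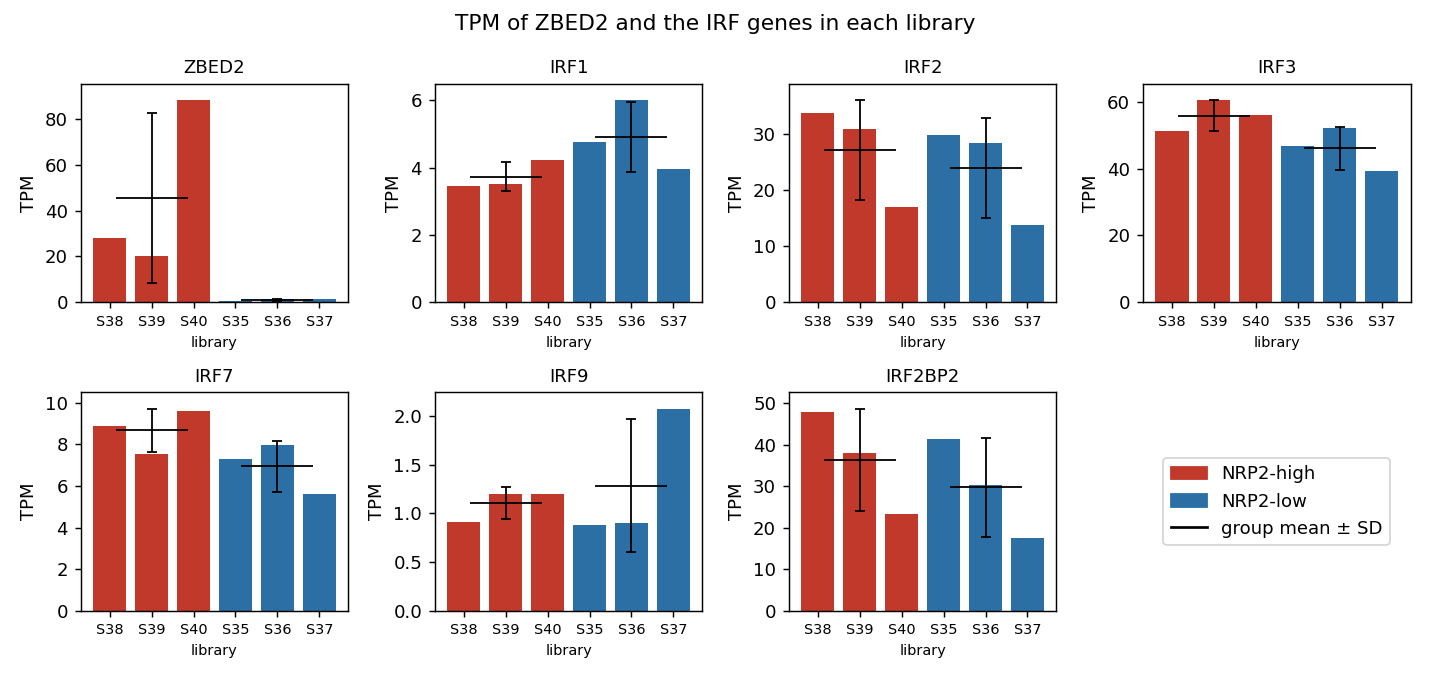
TPM (linear axes from 0, scaled per gene) of ZBED2 and 6 IRF genes in each library, NRP2-high in red and NRP2-low in blue, with black lines for the group mean ± SD (n = 3 each). ZBED2 separates the groups, with 20.3 TPM or more in every NRP2-high library and 1.26 TPM or less in every NRP2-low library, whereas the bars of each IRF gene overlap between the groups.

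IRF1, an activator that interferon gamma and NF-kB both induce, was 3.45, 3.50 and 4.23 TPM in NRP2-high cells, against 4.76, 6.02 and 3.95 TPM in NRP2-low cells. The groups overlapped, because S40 was the highest of NRP2-high and S37 the lowest of NRP2-low. Means of 3.73 ± 0.440 TPM in NRP2-high and, for NRP2-low, 4.91 ± 1.04 TPM resulted (SD, n = 3 each), from 147 to 290 reads per library. The log2 fold change came to -0.31 (SE 0.22; 95% limits -0.82 to 0.20, limma adjusted p = 0.883). IRF1 (ENSG00000125347.13, minus strand of chromosome 5, 132481609 to 132490798) shares 22.0% of its exon bases with the antisense transcript C5orf56, at 0.113 to 0.424 TPM, and how such reads were assigned is not given in the sources used here.

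Upstream sequence of ZBED2 and IRF1 from RefSeq (GRCh38) is shown because these are the opposed repressor and activator, with ZBED2 chosen for its difference. Each stretch ends just before the first annotated base of the gene, 5′ to 3′ on the minus strand, at chr3:111595444-111595596 for ZBED2 and chr5:132490799-132491023 for IRF1. Capitals mark a match to the gamma-activated site TTCNNNGAA or to the NF-kB consensus.
ZBED2: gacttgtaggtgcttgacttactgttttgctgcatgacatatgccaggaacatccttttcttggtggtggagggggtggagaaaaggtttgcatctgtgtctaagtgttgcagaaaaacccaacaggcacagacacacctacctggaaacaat
IRF1: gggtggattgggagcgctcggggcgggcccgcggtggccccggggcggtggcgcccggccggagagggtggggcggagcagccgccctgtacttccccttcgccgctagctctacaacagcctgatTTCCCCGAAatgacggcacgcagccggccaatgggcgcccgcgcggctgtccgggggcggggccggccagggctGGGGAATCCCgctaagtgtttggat
The IRF1 stretch holds 1 gamma-activated site, an element of interferon gamma signalling, at -124 from the RefSeq start, and 1 NF-kB match at -50. In the 300-base windows around the start of 4 of the 7 genes (ZBED2, IRF1, IRF9 and IRF2BP2), searched on both strands, ZBED2 and IRF2BP2 had no match to these 2 motifs or to the interferon-stimulated response element (GAAA, any 2 bases, GAAA). IRF9 had 1 gamma-activated site, TTCTGGGAA, at -63. Of all 35116 such windows 7.66% held the gamma-activated site, 11.3% the NF-kB consensus and 3.57% the response element. A match describes letters only.

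Median-scaled, IRF1 was at 3.23, 3.30 and 4.17 in S38, S39 and S40, and at 4.63, 5.63 and 4.89 in S35, S36 and S37. On this scale the groups separated, with IRF1 lower in NRP2-high, which 13.9% of tested genes did in either direction and 6.45% did downwards, and the log2 fold change was -0.41 (limma adjusted p = 0.629). It was the only IRF gene of the 6 whose groups separated when median-scaled.

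IRF2, which binds the same elements and mostly represses, was 33.8, 30.9 and 17.0 TPM in NRP2-high cells (S38, S39, S40) and 29.9, 28.5 and 13.8 TPM in NRP2-low cells (S35, S36, S37). One library of each group, S40 and S37, lay well below the other two, and the groups overlapped. NRP2-high averaged 27.2 ± 8.97 TPM and NRP2-low 24.1 ± 8.95 TPM (SD, n = 3 each), with a log2 fold change of 0.19 (SE 0.35, 95% limits -0.60 to 0.98, limma adjusted p = 0.927). Without S37 the log2 fold change was -0.15.

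IRF2BP2, a corepressor named for its binding to IRF2, was 47.9, 38.1 and 23.3 TPM in NRP2-high cells (S38, S39, S40) and 41.5, 30.2 and 17.5 TPM in NRP2-low cells (S35, S36, S37). It had the same low libraries as IRF2, and its groups overlapped as well. The log2 fold change was 0.31 (SE 0.35, 95% limits -0.48 to 1.09, limma adjusted p = 0.901), and -0.02 without S37. Within each library the ratio of IRF2BP2 to IRF2 TPM stayed between 1.06 and 1.42, although across libraries IRF2BP2 varied 2.73-fold and IRF2 2.46-fold. S40 and S37 had the most mitochondrial TPM and the least NRP2 of their groups, and the part of either in this pattern was not tested. The pattern was chosen after the values were seen. IRF2BP2 shares 14.7% of its exon bases with the antisense gene AL160408.2, for which no TPM is given, so the assignment of such reads is uncertain.

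IRF3, a latent factor that the kinase TBK1 activates after nucleic acid sensing, had the highest level of the 7 genes' averages, at 51.1, 60.6 and 55.9 TPM in NRP2-high cells, against 46.9, 52.1 and 39.3 TPM in NRP2-low cells. The groups overlapped only where S36 exceeded S38. The log2 fold change was 0.28 (SE 0.17, 95% limits -0.11 to 0.66, limma adjusted p = 0.872), and 0.16 when median-scaled. IRF3 shares 19.3% of its exon bases with BCL2L12 on the other strand, which was at 41.1 to 54.9 TPM, so the division of reads between them is uncertain.

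IRF7, the interferon-inducible amplifier of type I interferon genes, was 8.91, 7.55 and 9.60 TPM in NRP2-high cells, against 7.30, 7.95 and 5.59 TPM in NRP2-low cells. The groups overlapped through S39 and S36. The log2 fold change was 0.29 (SE 0.21, 95% limits -0.18 to 0.76, limma adjusted p = 0.881). IRF9, the DNA-binding subunit of the ISGF3 complex, was the lowest of the IRF genes, at 0.916, 1.20 and 1.20 TPM in NRP2-high cells, against 0.877, 0.903 and 2.08 TPM in NRP2-low cells. S37 was the high one, with 44 reads and a 95% counting interval of 1.51 to 2.79 TPM, and the other five libraries had 19 to 28 reads. For IRF9 the log2 fold change came to -0.08 (SE 0.29, limma adjusted p = 0.969) and 0.15 without S37. IRF9 shares 48.4% of its exon bases with AL136295.5 on the same strand, so its level is uncertain.

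None of the 6 IRF genes passed the threshold of a limma adjusted p of 0.05, which 0.835% of the 15214 tested genes passed (0.348% higher and 0.486% lower). At an unadjusted p under 0.05 there were 0 of 6, beside 1065 of the 15214. On deposited values their groups overlapped in 6 of 6 cases. The groups were apart for 12.0% of tested genes (8.83% higher and 3.14% lower in NRP2-high). Median-scaled, the groups of IRF1 alone separated, beside 13.9% of tested genes. With 6 genes these counts are too small to set against those shares. On deposited values 4 of the 6 lay above 0 and 2 below, with a median log2 fold change of 0.23, beside 0.10 for all tested genes. No IRF gene passed under any of 12 alternative settings.

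**Figure D2:**
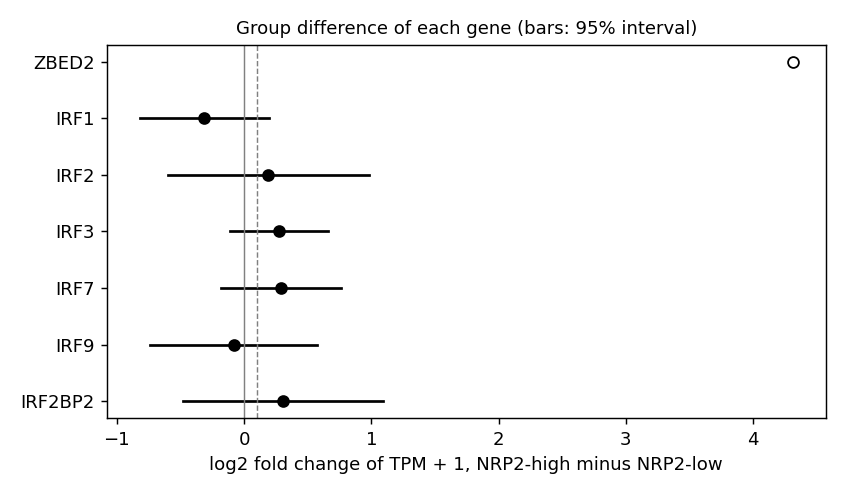
Log2 fold change of TPM + 1, NRP2-high minus NRP2-low, for each gene, with the 95% interval of the limma fit as a bar for the 6 IRF genes. ZBED2 (open circle, 4.31) was chosen by this difference and has no interval, the dashed line marks the median of all tested genes (0.10), and each IRF interval includes 0.

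In order of mean TPM over the 6 libraries, IRF3 (50.98) was followed by IRF2BP2 (33.1), IRF2 (25.6), IRF7 (7.82), IRF1 (4.32) and IRF9 (1.20). Each stood above the next in 6 of 6 libraries. Across libraries the ranges of IRF3 and IRF2BP2, of IRF2BP2 and IRF2, and of IRF7 and IRF1 overlapped, while those of IRF2 and IRF7, and of IRF1 and IRF9, did not. ZBED2 changed its place in this order with the group. It exceeded IRF1 and IRF7 in all NRP2-high cells and was below both in all NRP2-low cells, and it exceeded IRF2, IRF3 and IRF2BP2 in S40 alone.

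The ratio of ZBED2 to IRF1 TPM was 8.08, 5.80 and 20.9 in NRP2-high cells (S38, S39, S40), against 0.0815, 0.209 and 0.314 in NRP2-low cells (S35, S36, S37). Nearly all of this separation came from ZBED2, since IRF1 varied 1.75-fold over the 6 libraries and ZBED2 229-fold. The ratio of IRF2 to IRF1, a repressor to an activator of the same elements, was 9.81, 8.83 and 4.02 in NRP2-high cells, against 6.29, 4.73 and 3.48 in NRP2-low cells. These groups overlapped (two-sided exact permutation p = 0.3, where 3 against 3 cannot go below 0.1).

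**Figure D3:**
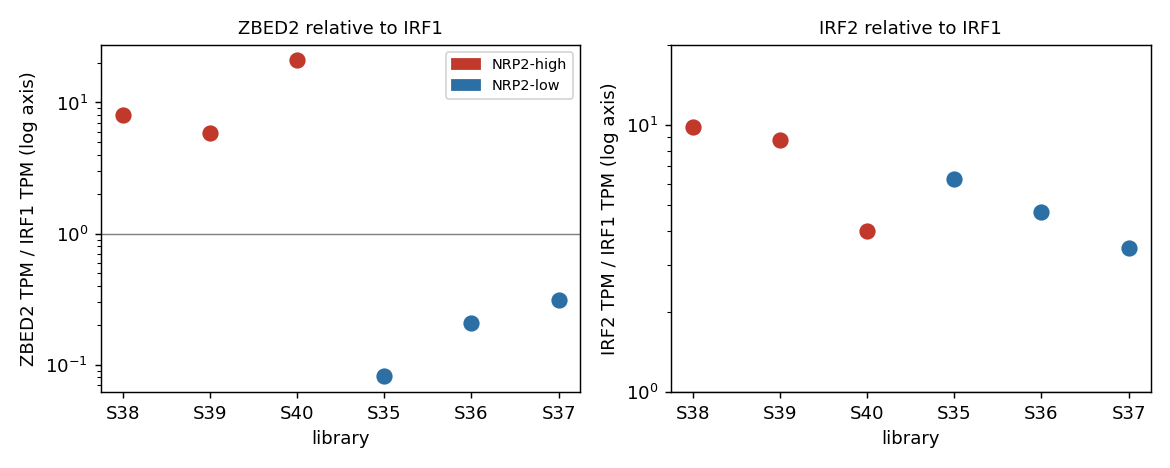
Ratio of TPM within each library on log axes, ZBED2 over IRF1 on the left and IRF2 over IRF1 on the right, NRP2-high in red and NRP2-low in blue. The grey line on the left marks a ratio of 1: the NRP2-high cells lie above it (5.80 to 20.9) and the NRP2-low cells below it (0.0815 to 0.314), while the IRF2 ratios overlap.

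CD96, a receptor of T and natural killer cells, spans ZBED2 on the opposite strand (chromosome 3, 111292719 to 111665750). It was 0.762, 0.853 and 0.706 TPM in NRP2-high cells (S38, S39, S40), against 0.0444, 0.0297 and 0.0311 TPM in NRP2-low cells (S35, S36, S37). The groups lay far apart, though on few reads: 24, 27 and 25 in NRP2-high cells, against 2, 1 and 1 in NRP2-low cells. Per library depth the read ratio was 20.2 (95% counting interval 7.57 to 76.0). CD96 was below the filter on low values, and with no filter it had a log2 fold change of 0.78 (SE 0.09, limma adjusted p = 0.0433). PTPRC, a marker of all leukocytes, had 3 reads in each group.

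PLCXD2, of the phospholipase C X domain family, is the next protein-coding gene after ZBED2, 79.2 kb away. It was 18.4, 16.5 and 23.9 TPM in NRP2-high cells, against 8.78, 7.33 and 5.77 TPM in NRP2-low cells. The groups did not overlap, and PLCXD2 rose by a log2 fold change of 1.31 (SE 0.22, limma adjusted p = 0.0363). The call ended in each of the 6 fits with 1 library left out, where the log2 fold change was 1.17 to 1.44 and the limma adjusted p 0.0631 to 0.157, and with no filter (limma adjusted p = 0.122). PHLDB2, which follows, was at 26.5 ± 5.62 TPM in NRP2-high cells, against 18.6 ± 5.95 TPM in NRP2-low cells (SD, n = 3 each; limma adjusted p = 0.823), and it shares 322 exon bases with PLCXD2. On the other side the adhesion gene NECTIN3 was at 46.8 ± 8.22 TPM in NRP2-high cells, against 33.6 ± 7.56 TPM in NRP2-low cells (SD, n = 3 each; limma adjusted p = 0.748), and DPPA2 had 0 reads in NRP2-high cells, against 1 read in NRP2-low cells.

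Within 1000 kb of the ZBED2 start 9 other genes were tested, of which 1 passed the threshold, PLCXD2, beside 0.835% of all tested genes. All 9 had a log2 fold change above 0, as had 66.3% of all tested genes, and their median was 0.47, beside 0.10. Median-scaled, 8 of 9 lay above 0, beside 48.0% of all tested genes, with a median of 0.35.

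**Figure D4:**
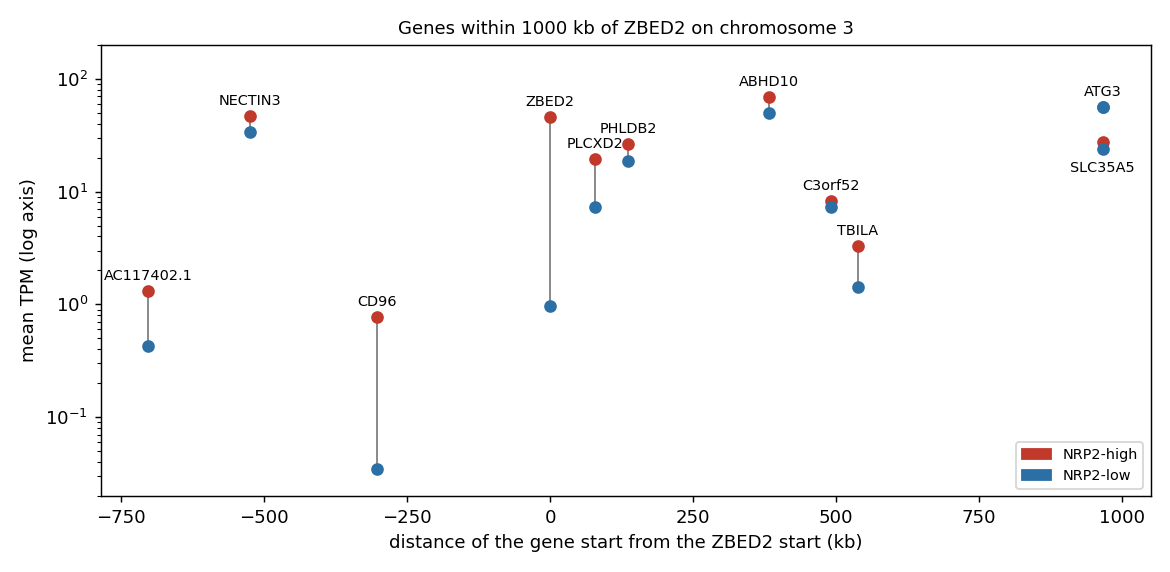
Mean TPM (log axis) of ZBED2, CD96 and the 9 tested genes within 1000 kb, by distance of their annotated start from that of ZBED2, NRP2-high in red and NRP2-low in blue (n = 3 each). ZBED2 and CD96 show the widest gaps between the groups (45.6 and 0.963 TPM; 0.774 and 0.0351 TPM), followed by PLCXD2 among the labelled protein-coding genes.

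No relative of the 7 genes that was tested passed the threshold. IRF4 and IRF5 had 3 and 3 reads in NRP2-high cells, against 2 and 0 reads in NRP2-low cells, and IRF8 was not analysed here. Of the 5 tested relatives of ZBED2 none passed, and their log2 fold changes lay between -0.19 and 0.11. ZBED4 was at 27.3 ± 4.33 TPM in NRP2-high cells, against 27.4 ± 7.16 TPM in NRP2-low cells, and ZBED5 at 17.5 ± 1.14 TPM in NRP2-high, against 16.3 ± 2.34 TPM in NRP2-low (SD, n = 3 each). The IRF2BP2 relatives IRF2BPL and IRF2BP1 had log2 fold changes of 0.15 and 0.17, with limma adjusted p-values of 0.935 and 0.903.

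The machinery that signals to the IRF genes showed no call either. Of 13 tested interferon receptors, kinases, STAT factors and feedback inhibitors, 0 passed by limma and 2 had an unadjusted p under 0.05, as had 1065 of the 15214 genes tested in all. Their median log2 fold change was 0.01, beside 0.10 for all tested genes, and -0.11 beside -0.01 when median-scaled. JAK1, the kinase shared by the interferon receptors, was at 141 ± 4.13 TPM in NRP2-high cells, against 144 ± 41.4 TPM in NRP2-low cells (SD, n = 3 each).

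The receptor inhibitors SOCS3 and USP18 had the 2 lowest unadjusted p-values of that list, both lower in NRP2-high. SOCS3 was 43.4, 49.9 and 53.97 TPM in NRP2-high cells, against 82.8, 69.0 and 60.7 TPM in NRP2-low cells (log2 fold change -0.52, limma adjusted p = 0.487). IFNLR1, the specific chain of the interferon lambda receptor, was without a read (0) in S38, S39 and S40 of NRP2-high and had 10, 26 and 16 reads in NRP2-low cells (S35, S36, S37). With NRP2-high set to an assumed 3 reads in total, IFNLR1 was 16.3-fold lower there per library depth. That figure depends on the assumed reads and is no lower bound. Under the filter IFNLR1 was not tested, and with no filter the limma adjusted p was 0.335. SOCS3, USP18 and IFNLR1 were chosen after their values were seen.

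Among 11 tested genes of nucleic acid sensing and the kinases that act on IRF3 and IRF7, 0 passed by limma and 1 had an unadjusted p under 0.05, beside 1065 of 15214. Of the 11, 4 lay above 0 with a median of -0.06, and 1 of 11 with a median of -0.18 when median-scaled, where 66.3% and 48.0% of all tested genes lay above 0. Without S37, 0 of 11 lay above 0, beside 49.1% of all tested genes. The direction turned in other fits. Without S40, 6 of 11 lay above 0 with a median of 0.04, beside 64.1% of all tested genes. Without S36, 6 of 11 lay above 0 with a median of 0.06, beside 71.2%. DDX58, which encodes the RNA sensor RIG-I, was at 95.3, 78.7 and 38.7 TPM in NRP2-high cells (S38, S39, S40) and 77.1, 67.6 and 34.5 TPM in NRP2-low cells (S35, S36, S37), so it had its low values in S40 and S37 as IRF2 had. TBK1 was at 54.0 ± 3.24 TPM in NRP2-high cells, against 60.96 ± 6.62 TPM in NRP2-low cells (SD, n = 3 each). TRAF3, an adaptor on this route, was 17.2, 17.5 and 22.7 TPM in NRP2-high cells, against 29.7, 34.9 and 23.0 TPM in NRP2-low cells. Its groups did not overlap, with a log2 fold change of -0.58 (limma adjusted p = 0.537, chosen after its values were seen). Of the 8 interferon genes looked up, IFNE alone was in the table, at 11 reads in NRP2-high cells, against 10 reads in NRP2-low cells.

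Of 28 listed IRF1 target genes 25 were in the table and 15 were tested. Of these 0 passed by limma, 2 had an unadjusted p under 0.05, 7 lay above 0 and 8 below, and the median log2 fold change was -0.05. Over all tested genes 1065 of 15214 had such a p, 66.3% lay above 0 and the median was 0.10. Median-scaled, 4 of 15 lay above 0 with a median of -0.12, beside 48.0% and -0.01 over all tested genes. Without S37, 3 of 15 lay above 0 with a median of -0.26, beside 49.1% and -0.004 over all tested genes. The direction turned in other fits. Without S35, 9 of 15 lay above 0 with a median of 0.04, beside 68.3% and 0.14. Without S36, 8 of 15 lay above 0 with a median of 0.01, beside 71.2% and 0.17. B2M, the light chain of MHC class I, was 140, 148 and 109 TPM in NRP2-high cells, against 175, 157 and 235 TPM in NRP2-low cells, which did not overlap (log2 fold change -0.50, limma adjusted p = 0.634). TAPBP, a chaperone of the same complex, was at 123 ± 5.64 TPM in NRP2-high cells, against 130 ± 29.3 TPM in NRP2-low cells (SD, n = 3 each). PSMB9, an immunoproteasome subunit, was 0.595, 1.24 and 0.106 TPM in NRP2-high cells, against 2.46, 2.96 and 1.69 TPM in NRP2-low cells (log2 fold change -1.07, limma adjusted p = 0.394, chosen after its values were seen). Several other targets had almost no reads: CXCL10 had 0 reads in NRP2-high cells, against 1 read in NRP2-low cells, CIITA 1 and 0, and CD74 2 and 1.

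Of 22 tested genes induced through ISGF3, 0 passed by limma and 3 had an unadjusted p under 0.05, 2 higher and 1 lower in NRP2-high, beside 1065 of 15214. Their median log2 fold change was 0.15 with 16 of 22 above 0, beside 0.10 and 66.3% over all tested genes. When median-scaled it was 0.05 with 12 of 22 above 0, beside -0.01 and 48.0%, so the share above 0 lay near that of all genes. ADAR, an RNA editing enzyme, was at 132 ± 2.75 TPM in NRP2-high cells, against 121 ± 30.1 TPM in NRP2-low cells, and EIF2AK2, the RNA-activated kinase, at 66.9 ± 6.18 TPM in NRP2-high, against 59.96 ± 15.4 TPM in NRP2-low (SD, n = 3 each). ISG15, a ubiquitin-like modifier, was 15.7, 16.4 and 15.4 TPM in NRP2-high cells, against 7.75, 10.9 and 9.91 TPM in NRP2-low cells (log2 fold change 0.69, limma adjusted p = 0.280). IFITM3, a membrane protein that blocks viral entry, was 13.8, 14.7 and 17.0 TPM in NRP2-high cells, against 27.3, 27.7 and 20.0 TPM in NRP2-low cells (log2 fold change -0.67, limma adjusted p = 0.326). Neither pair of groups overlapped, and both genes were chosen after their values were seen.

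**Figure D5:**
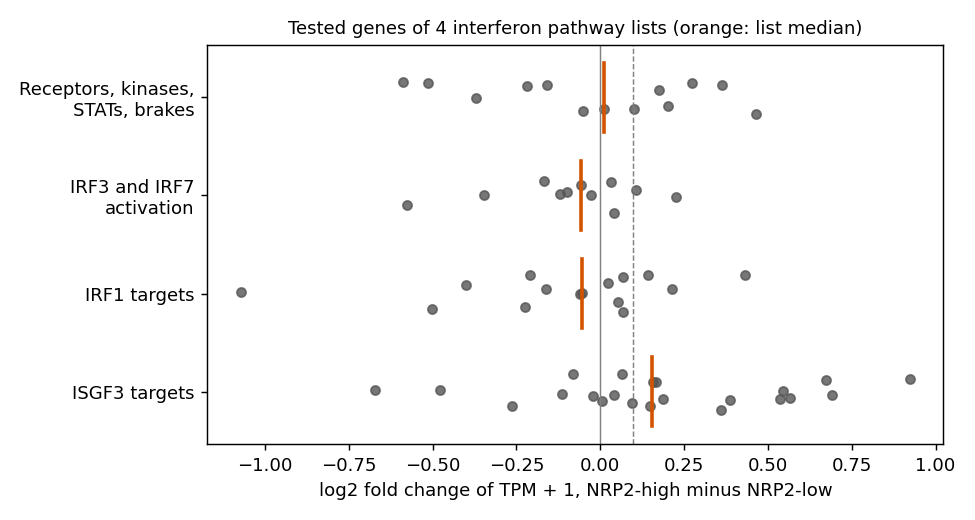
Log2 fold change of TPM + 1, NRP2-high minus NRP2-low, for the tested genes of 4 interferon pathway lists (13, 11, 15 and 22 genes from top to bottom, 1 point a gene, spread vertically for legibility), with list medians in orange. The solid line is 0 and the dashed line the median of all tested genes (0.10); list medians are 0.01, -0.06, -0.05 and 0.15, and no point passed the threshold.

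The genes most like ZBED2 across the libraries were sought among 10249 tested genes with a mean of at least 5 TPM. Likeness was the root mean square difference between log2(TPM + 1) profiles centred on their own mean, over 6 libraries. The 6 nearest were IGFBP4 (0.61), FN1 (0.98), ANXA1 (1.12), the pseudogene WFDC21P (1.12), SLCO2B1 (1.16) and THBS1 (1.29). Most of this likeness is the difference between the groups by which ZBED2 was chosen. IGFBP4, WFDC21P, SLCO2B1 and THBS1, which encodes thrombospondin 1, were all highest in S40, as ZBED2 was. In S38, S39 and S40, WFDC21P was 19.6, 11.6 and 37.0 TPM and SLCO2B1 5.58, 13.0 and 18.4 TPM. IGFBP4 was 29.3, 44.9 and 45.6 TPM there, so S40 barely exceeded S39. THBS1 was 52.7, 116 and 393 TPM in NRP2-high cells (S38, S39, S40), and 28.1, 43.3 and 33.7 TPM in NRP2-low cells (S35, S36, S37). FN1 and ANXA1 were at their lowest of the NRP2-high cells in S40 instead.

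Genes most like IRF1 by the same measure were TRAF2 (0.03), LTBR (0.04), TOPBP1 (0.05) and FASTKD5 (0.05). TRAF2, an adaptor of tumour necrosis factor receptors, was 21.2, 20.97 and 26.2 TPM in NRP2-high cells, against 27.5, 32.7 and 23.6 TPM in NRP2-low cells, with S40 the highest of NRP2-high and S37 the lowest of NRP2-low as for IRF1. LTBR encodes the lymphotoxin beta receptor, TOPBP1 a DNA damage checkpoint scaffold and FASTKD5 a mitochondrial RNA-processing protein. From IRF1 the other IRF genes lay at 0.31 (IRF7 and IRF3) to 0.57 (IRF2BP2). Against the 10249 genes searched these were distant places: 5559 for IRF7, 5572 for IRF3 and 9493 for IRF2BP2.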

How the data were processed

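The authors deposited 1 table of TPM values, per the file headers, beside each gene's length and position. The tools featureCounts 1.5.2 and DESeq2 1.20.0 and the build hg38 (GRCh38.p12) are named per the submitters' processing notes, without roles. The aligner is not given in the sources used here; strand is likewise unstated, so antisense overlaps are unresolved. All 27958 gene identifiers and starts match GENCODE release 29, and for 7 of 7 members the length equals the GENCODE exon length. Columns were tied to groups by the word in their names; S numbers are in no label. TPM times length, divided by its smallest value, gave whole reads for 100% of non-zero values (tolerance 0.001).

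The test took genes reaching 1 TPM in 3 or more libraries (15214). Log2(TPM + 1), with a pseudocount of 1, entered limma 3.58.1 (R 4.3.3) (variance trend, group as the only term, two-sided, Benjamini-Hochberg over all genes; threshold 0.05), and 95% intervals are unadjusted. Of 15214 genes 53 were higher and 74 lower. Python 3.11.15, pandas 2.3.3 and scipy 1.17.1 did the rest.

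Members and lists were chosen with earlier results of these data known. Of 117 entries in 8 pathway lists 102 matched, and 68 were tested. Named were the members, called or otherwise the 2 highest genes of a list, the neighbours of ZBED2 and the nearest profiles; for any other gene the text says that it was picked with its values in view. Promoter windows are from RefSeq (GRCh38.p14), 250 bases before to 50 after the start. Alternatives were the pseudocount, filter, scaling, nuclear TPM, trend and libraries left out. Some genes of these lists count in the list totals and are not reported here by name.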

Additional observations from a re-analysis of the deposited data

How the results depend on the processing

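The 6 IRF genes had no call in any of 72 refits, 12 for each gene, where the lowest limma adjusted p was 0.270, and in 68 they kept their direction. Without S37 IRF2 turned to -0.15, IRF9 to 0.15 and IRF2BP2 to -0.020, and without both S40 and S37, an alternative chosen after seeing the data, IRF9 was 0.12. Leaving out each library in turn gave log2 fold changes from -0.15 to 0.49 for IRF2, from -0.20 to 0.15 for IRF9 and from -0.020 to 0.59 for IRF2BP2; the cause was not tested. The ZBED2 log2 fold change was 5.27 with a pseudocount of 0.1, which weights its low values more, and 3.69 to 4.73 with 1 library left out. Of the genes on the pathway lists 0 passed in the planned settings and 1, IFITM3 (limma adjusted p = 0.0445), without S40 and S37. The count of genes past the threshold, 127, was 74 with no filter, where 27958 genes were tested, and 43 (without S36) to 97 (without S40) with 1 library left out. No paired analysis was possible because the column names carry no replicate number. IRF9, with 19 to 44 reads per library, and CD96, with 4 reads in NRP2-low, are limited by depth.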
